A study of Mus musculus with 10 samples.

Results

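The response of bone marrow–derived macrophages (BMDMs) to PNPi+dG/rG without any added RNA was compared with vehicle. PNPi+dG/rG is an inhibitor of purine nucleoside phosphorylase (PNP) given together with deoxyguanosine (dG) and guanosine (rG). The comparison used the 4 libraries that the sample labels assign to these groups, 2 per group, out of 10 in the series. Genes were taken in when their mean over those 4 libraries reached 5 CPM, where CPM are the reads of a gene scaled to the reads on all genes. The macrophages were grown in M-CSF from the marrow of female C57BL/6 WT mice and were treated for 4 hours. Cells of the treated group received 1 μM ulodesine, which is the PNP inhibitor, with 5 μM dG and 5 μM rG. The remaining libraries came from cells given 5 μg polyU, a synthetic ssRNA carried by the lipid DOTAP, from cells given PNPi+dG/rG with polyU, and from cells given 1 ng/mL R848, a small-molecule TLR7 agonist. No group received the inhibitor, dG or rG singly, so their parts in any difference cannot be told apart.

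PNP splits guanosine and deoxyguanosine into guanine and a sugar phosphate, and the guanine is then salvaged to a nucleotide or broken down to uric acid. TLR7 is an endosomal receptor that binds guanosine and uridine-containing ssRNA at separate sites, and it signals through Myd88 to NF-κB and to IRF transcription factors. NF-κB drives genes for cytokines and for its own inhibitors, while IRF factors and type I IFN drive IFN-stimulated genes.

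The vehicle libraries held 17820949 and 17798371 reads on genes, and the PNPi+dG/rG libraries held 38392585 and 37402319. The treated libraries were thus the deeper ones, and depth and treatment cannot be told apart. At 5 CPM a gene had 89.1 and 89.0 reads with vehicle and 192 and 187 reads with PNPi+dG/rG. The smallest amount taken as detectable was 3 reads, or 0.168 and 0.169 CPM with vehicle and 0.0781 and 0.0802 CPM with PNPi+dG/rG. These limits cover counting error only. Of the genes in the table, 9578 passed the filter, 13748 had a read but a lower mean, and 32247 had no read in the 4 libraries. At the edge of the filter, Zfp991 and Pecr were the nearest genes inside, each with a mean of 5.00 CPM, and Gm14548 and Zc4h2 were the nearest outside, each also at 5.00 CPM after rounding. The libraries of a group correlated across genes with r = 0.996 for vehicle and 0.998 for PNPi+dG/rG, although genes are not independent replicates. In a chi-square test of the reads, 27.5% of genes differed between the vehicle libraries and 27.0% between the PNPi+dG/rG libraries at the 0.05 level, so replicates varied by more than counting error.

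The cells carried macrophage transcripts in all 4 libraries. Of 17 macrophage markers, 16 passed the filter, and their summed level was 27402 and 28624 CPM with vehicle and 28653 and 27749.5 CPM with PNPi+dG/rG. The most abundant was Lyz2, which encodes lysozyme, with 10805 and 11067 CPM with vehicle and 11494 and 11404 CPM with PNPi+dG/rG. None of the 16 was called changed by limma, and 2 had an unadjusted p under 0.05, against 1.14% and 10.1% of all genes tested. Markers of other cells were low. The summed level of 9 B cell markers was 0.842 and 1.18 CPM with vehicle and 1.22 and 0.508 CPM with PNPi+dG/rG, with Ebf1 and Vpreb3 at 0 reads. For 11 T and NK cell markers the sum was 10.9 and 14.8 CPM with vehicle and 9.87 and 9.06 CPM with PNPi+dG/rG, most of it from Cd4, and Cd3d, Cd3e and Gzma had no read. Fibroblast markers, 16 in all, summed to 3.03 and 4.10 CPM with vehicle and 3.99 and 4.25 CPM with PNPi+dG/rG, with Fn1 highest and Tcf21 at 0. Neutrophil markers, 11 in all, summed to 18.6 and 19.2 CPM with vehicle and 16.1 and 16.8 CPM with PNPi+dG/rG, with Mmp8 highest and Ly6g and Retnlg at 0. The sum of 11 erythroid and platelet markers was 28.2 and 32.0 CPM with vehicle and 30.7 and 30.3 CPM with PNPi+dG/rG, nearly all from Pf4, and Gp9 was at 0.

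A few marker lists were higher or differed between the groups. The 10 dendritic cell markers summed to 249.8 and 259.6 CPM with vehicle and 268 and 251 CPM with PNPi+dG/rG, almost entirely from Bst2, which macrophages also express, and Cd209a and Xcr1 had no read. The 9 mast cell and basophil markers summed to 14.9 and 15.2 CPM with vehicle and 8.44 and 8.53 CPM with PNPi+dG/rG. Most of this was Kit, the stem cell factor receptor, with 13.8 and 14.2 CPM with vehicle and 7.03 and 7.35 CPM with PNPi+dG/rG (log2 fold change -0.96, limma adjusted p = 0.158), while Fcer1a, Mcpt4, Mcpt8, Ms4a2, Prss34 and Tpsb2 had 0 reads in all 4 libraries. The 10 endothelial markers summed to 246 and 239.9 CPM with vehicle and 208 and 208 CPM with PNPi+dG/rG, mostly from Kdr, which encodes a VEGF receptor, and Vwf, with Cldn5 and Emcn at 0. The others, Pecam1, Cdh5, Esam, Tek, Erg and Egfl7, had means over the 4 libraries from 0.0199 CPM for Tek to 1.77 CPM for Cdh5. Kdr was called lower, with 156 and 146 CPM with vehicle and 115 and 111 CPM with PNPi+dG/rG (log2 fold change -0.42), though not without vehicle replicate 1 (-0.37) or PNPi+dG/rG replicate 2 (-0.40), and Vwf had 87.9 and 91.4 CPM with vehicle and 91.1 and 94.5 CPM with PNPi+dG/rG and was not called. Kit and Kdr were lower in both treated libraries than in both vehicle libraries. A value of 0 does not by itself show that a transcript is absent, since 6 of 13 mitochondrial mRNAs, among them mt-Co2 and mt-Co3, also had 0 reads in all 4 libraries. Whether these levels come from a few cells of another type was not tested, and fewer cells of a type and less RNA per cell cannot be told apart in bulk RNA.

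PNPi+dG/rG alone gave a small response. By limma, 109 of the 9578 genes, or 1.14%, differed from vehicle at an adjusted p-value under 0.05. Of these, 51 (0.532%) were higher and 58 (0.606%) were lower. The changes were small, since 12 genes (0.125%) differed by at least 1.5-fold, 6 in each direction, and 1 gene in each direction differed by at least 2-fold. The median change was 0.35 on the log2 scale among the higher genes, or 27.7% more, and -0.30 among the lower genes, or -18.8%. Every one of the 109 genes had both treated libraries on the same side of both vehicle libraries. Such separation alone is common with 2 libraries a group. Among all genes tested, 2354 (24.6%) had both treated libraries above both vehicle libraries, and 1839 (19.2%) had both below. Across the genes tested, the middle log2 fold change was 0.02.

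These counts moved with the settings. At an unadjusted p under 0.05 there were 965 genes, or 10.1% of those tested. With eBayes in its plain form, without the trend and the robust step, limma called 5 genes higher and 1 lower. With each library centered on the median of its tested genes it called 36 higher and 106 lower. Without vehicle replicate 1 the counts were 26 higher and 10 lower, without vehicle replicate 2 they were 25 and 21, without PNPi+dG/rG replicate 1 they were 37 and 16, and without PNPi+dG/rG replicate 2 they were 7 and 5. Of the 51 higher genes, 16, 23, 29 and 6 were still called in these 4 fits, in the same order, and of the 58 lower genes 10, 15, 15 and 5. The higher genes called in all 4 of these fits were Egr1, Mgea5, Mir22hg, Nfkbia and Tnf, and the lower genes included Ahnak. Ahnak, a giant scaffold protein, was chosen after its values were seen, and had 1741 and 1847 CPM with vehicle and 1488 and 1462 CPM with PNPi+dG/rG.

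Egr1 had the largest increase of any called gene. This immediate-early transcription factor (ENSMUSG00000038418, chromosome 18, 34859823 to 34864984, plus strand) had 4.66 and 4.44 CPM with vehicle and 9.79 and 8.48 CPM with PNPi+dG/rG (log2 fold change 1.00, SE 0.149, limma adjusted p = 0.00377). Both treated libraries were about double the vehicle libraries, although the level was near the lower limit of the filter. Mir22hg (ENSMUSG00000085148, chromosome 11, 75461539 to 75466676, plus strand), the host transcript of a microRNA, had 20.4 and 22.9 CPM with vehicle and 36.5 and 35.7 CPM with PNPi+dG/rG (log2 fold change 0.74, SE 0.0731, limma adjusted p = 4.5e-05). Mgea5 (ENSMUSG00000025220, chromosome 19, 45750259 to 45783837, minus strand) encodes the enzyme that removes O-GlcNAc from proteins. It had 103 and 106 CPM with vehicle and 148 and 150.2 CPM with PNPi+dG/rG (log2 fold change 0.51, SE 0.0494, limma adjusted p = 4.5e-05). The treated replicates of Mir22hg and of Mgea5 lay close together and well above vehicle. These were the only higher genes called under all 18 alternative settings tried. Egr1 was called in all 17 in which it was tested, since a filter at a mean of 10 CPM leaves it out.

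The other genes among the 10 largest increases were inflammatory genes or transcripts of uncertain function. Arid5a, an RNA-binding protein that stabilizes cytokine mRNAs, rose from 4.32 and 4.55 to 6.77 and 6.82 CPM (log2 fold change 0.62, SE 0.112, limma adjusted p = 0.0117). Gm12250, which encodes the IFN-inducible GTPase Irgb10 and is annotated as a processed pseudogene, rose from 5.78 and 4.83 to 8.47 and 9.60 CPM (log2 fold change 0.77, SE 0.116, limma adjusted p = 0.00377). The uncharacterized transcript Gm11613 rose from 6.12 and 5.34 to 9.74 and 10.2 CPM (log2 fold change 0.80, SE 0.122, limma adjusted p = 0.00377). In each of these the 4 libraries separated by group. Without PNPi+dG/rG replicate 2 none of the calls of Arid5a, Gm12250 and Gm11613 held, and their log2 fold changes were 0.61, 0.68 and 0.77. The call of Arid5a also ended without vehicle replicate 1 (0.58) and without PNPi+dG/rG replicate 1 (0.62). The remaining 4, Tnf, Nfkbiz, Nfkbia and Gbp7, belong to the NF-κB and IFN lists.

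**Figure D1:**
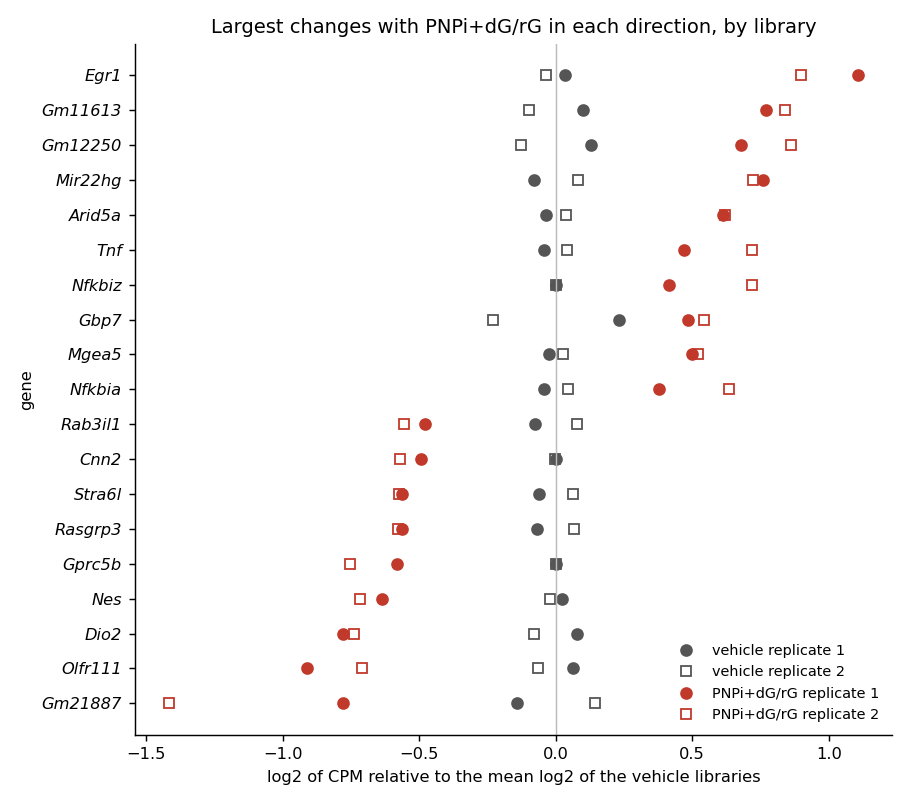
Values of the 10 called genes with the largest increase and 9 of the 10 with the largest decrease. Each point is 1 library, as log2 CPM minus the mean log2 CPM of the vehicle libraries, with vehicle in gray and PNPi+dG/rG in red, and with replicate 1 filled and replicate 2 open. In all 19 genes both red points lie on the same side of both gray points, and Egr1 and Gm21887 are shifted the most.

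Of the gene lists examined, NF-κB targets held the most genes called higher. Of 62 listed targets, 46 passed the filter. Limma called 14 of these higher and 0 lower, against 0.532% and 0.606% of all genes tested. At an unadjusted p under 0.05, 24 were higher and 1 was lower, against 484 and 481 of the 9578 genes tested. Both treated libraries lay above both vehicle libraries in 27 of the 46, or 58.7%, and below them in 5, or 10.9%, against 24.6% and 19.2% of all genes tested. The median log2 fold change of the list was 0.14, and it lay between 0.13 and 0.19 when a library was left out. By role, 8 of 18 signaling genes and regulators were called, 3 of 11 cytokines and chemokines, and 3 of 17 effectors and receptors. The number called was 5 without vehicle replicate 1, 10 without vehicle replicate 2, 17 without PNPi+dG/rG replicate 1 and 3 without PNPi+dG/rG replicate 2. It was 9 without a filter on low values and 0 with plain eBayes.

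The inhibitors and other regulators of NF-κB itself made up most of the called targets. Nfkbia (ENSMUSG00000021025, chromosome 12, 55489410 to 55492647, minus strand), which encodes the inhibitor IκBα, had 90.4 and 96.2 CPM with vehicle and 121 and 145 CPM with PNPi+dG/rG (log2 fold change 0.51, SE 0.0638, limma adjusted p = 0.0032). Nfkbiz (chromosome 16, 55811375 to 55838899, minus strand), a nuclear IκB protein that helps to switch on secondary response genes, had 13.1 and 13.1 CPM with vehicle and 17.4 and 21.5 CPM with PNPi+dG/rG (log2 fold change 0.57, SE 0.0768, limma adjusted p = 0.00377). Nfkb2 (chromosome 19, 46304320 to 46312385, plus strand), the precursor of an NF-κB subunit, had 75.0 and 86.7 CPM with vehicle and 102 and 104 CPM with PNPi+dG/rG (log2 fold change 0.35, SE 0.0551, limma adjusted p = 0.00463). In all 3 genes PNPi+dG/rG replicate 2 was the highest library. Without it, the log2 fold change of Nfkbia was 0.38 and that of Nfkbiz 0.41, with both still called, while Nfkb2 was at 0.34 and was not. The call of Nfkbiz ended without vehicle replicate 1, at 0.57. The other called regulators, chosen after their values were seen, were Nfkbie, Bcl3, Tnip3, Birc3 and Zc3h12a, with log2 fold changes from 0.26 to 0.46. Nfkbie and Bcl3 encode further IκB proteins, Tnip3 a partner of the inhibitor A20, Birc3 a ubiquitin ligase and Zc3h12a an RNase that degrades cytokine mRNAs. None of these 5 was called without PNPi+dG/rG replicate 2, where they lay between 0.19 and 0.36. Further calls ended without vehicle replicate 1 (0.41) for Nfkbie, vehicle replicate 1 (0.33) for Bcl3, vehicle replicate 1 (0.33) for Zc3h12a, vehicle replicate 2 (0.30) for Tnip3 and vehicle replicate 1 (0.29) or vehicle replicate 2 (0.23) for Birc3. Tnfaip3, which encodes A20, is a counterexample chosen in the same way, with 107 and 116 CPM with vehicle and 100.3 and 113 CPM with PNPi+dG/rG.

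Among the cytokines and chemokines, the genes called were Tnf, Ccl4 and Ccl3. Tnf (ENSMUSG00000024401, chromosome 17, 35199381 to 35202007, minus strand) had 53.2 and 56.4 CPM with vehicle and 75.7 and 90.0 CPM with PNPi+dG/rG (log2 fold change 0.59, SE 0.0709, limma adjusted p = 0.0032). Ccl4 (chromosome 11, 83662584 to 83664683, plus strand) had 56.0 and 58.5 CPM with vehicle and 80.7 and 78.8 CPM with PNPi+dG/rG (log2 fold change 0.48, SE 0.0798, limma adjusted p = 0.0183), and Ccl3 (chromosome 11, 83647844 to 83649355, minus strand) had 111 and 106 CPM with vehicle and 132 and 146 CPM with PNPi+dG/rG (log2 fold change 0.35, SE 0.0654, limma adjusted p = 0.0204). Ccl3 and Ccl4 are chemokines that attract leukocytes. All 3 genes were higher in both treated libraries than in either vehicle library. Tnf was called whichever library was left out, with log2 fold changes between 0.47 and 0.72. Ccl4 was not called whichever of the 4 libraries was left out, with values between 0.45 and 0.51, and Ccl3 was called only without PNPi+dG/rG replicate 1, at 0.42, and fell to 0.28 without PNPi+dG/rG replicate 2. The other 8 members ran from -0.25 for Il1rn, the IL-1 receptor antagonist, to 0.60 for the neutrophil chemokine Cxcl2, and did not pass the test. Cxcl2 had 5.61 and 5.79 CPM with vehicle and 6.75 and 11.02 CPM with PNPi+dG/rG, so most of its difference came from PNPi+dG/rG replicate 2. Il1rn and Cxcl2 were the ends of the list's range and were chosen after their values were seen.

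Several inflammatory genes were too low to be tested. Il1b had 2.13 and 1.97 CPM with vehicle and 2.11 and 2.30 CPM with PNPi+dG/rG, and Il12b had 1.29 and 1.405 CPM with vehicle and 1.2502 and 1.15 CPM with PNPi+dG/rG, both under the filter. Il6 had 1 and 0 reads in the vehicle libraries and 1 and 3 reads in the treated libraries. The gene for IFN-β, Ifnb1, had 1 and 0 reads against 2 and 0, and none of the 21 genes for type I and type III IFNs passed the filter. For Il6 and Ifnb1, no difference was detectable at this depth. Acod1, which makes the metabolite itaconate, had 62.3 and 62.1 CPM with vehicle and 70.6 and 89.9 CPM with PNPi+dG/rG (log2 fold change 0.36, limma adjusted p = 0.236). The treated libraries were above vehicle but differed from each other by more than the vehicle libraries did.

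The called effectors and receptors were Tlr2, Gpr84 and Ehd1, with values that ran from 0.21 for Ehd1, an endocytic recycling protein, to 0.47 for Tlr2, the receptor for bacterial lipoproteins. Tlr2 had 53.03 and 59.3 CPM with vehicle and 70.8 and 85.7 CPM with PNPi+dG/rG (log2 fold change 0.47, SE 0.0815, limma adjusted p = 0.0204). Gpr84, a receptor for medium-chain fatty acids, had 30.4 and 30.5 CPM with vehicle and 36.0 and 40.1 CPM with PNPi+dG/rG (log2 fold change 0.32, SE 0.0541, limma adjusted p = 0.00641). These 3 genes were chosen after their values were seen, and none was called without PNPi+dG/rG replicate 2, where Tlr2 was at 0.34, Gpr84 at 0.24 and Ehd1 at 0.17. Tlr2 and Ehd1 were also not called without vehicle replicate 1 (0.39 and 0.19), and Ehd1 not without vehicle replicate 2 (0.23).

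Some IFN-stimulated genes passed the test, and most of their fold changes were positive. Of 71 listed genes, 58 passed the filter. Limma called 6 of the 58 higher and 0 lower, against 0.532% and 0.606% of all genes tested. At an unadjusted p under 0.05 there were 29 higher and 0 lower, against 484 and 481 of the 9578 genes tested. Both treated libraries lay above both vehicle libraries in 37 of 58, or 63.8%, and below them in 0, against 24.6% and 19.2% of all genes tested. The fold change was positive in 55 of 58, against 5460 of the 9578 genes tested. The median of the list was 0.22 on the log2 scale. The vehicle libraries differed from each other in this list. The median over its genes, relative to the vehicle mean, was 0.10 in vehicle replicate 1 and -0.10 in vehicle replicate 2, against 0.24 and 0.19 in the treated libraries. Gm42418 and Lars2, transcripts linked to ribosomal RNA, were ordered alike, lowest in vehicle replicate 2 and highest in the treated libraries (13526 and 8686 to 18790.2 and 20786 CPM and 414 and 288 to 589 and 587 CPM). Whether the IFN list moves with them was not tested. Without vehicle replicate 1 the median was 0.31 and 7 genes were called, and without vehicle replicate 2 it was 0.11 and 0 were called. The count was 3 without PNPi+dG/rG replicate 1, 0 without PNPi+dG/rG replicate 2, and 3 with each library centered, where the median was 0.19.

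The called genes were Gbp7, Gbp3, Irf1, Parp14, Ifi203 and Slfn2. Irf1 (chromosome 11, 53770014 to 53778374, plus strand), a transcription factor of both the NF-κB and the IFN response, had 21.5 and 22.2 CPM with vehicle and 27.6 and 29.6 CPM with PNPi+dG/rG (log2 fold change 0.39, SE 0.071, limma adjusted p = 0.0121). Slfn2 (chromosome 11, 83065112 to 83070678, plus strand), a Schlafen family gene, had 219 and 216 CPM with vehicle and 252 and 265 CPM with PNPi+dG/rG (log2 fold change 0.25, SE 0.0446, limma adjusted p = 0.0108). Parp14 (chromosome 16, 35832874 to 35871544, minus strand), an ADP-ribosyltransferase, had 194 and 177 CPM with vehicle and 224 and 232 CPM with PNPi+dG/rG (log2 fold change 0.30, SE 0.0564, limma adjusted p = 0.0174). In these 3 genes the treated libraries lay above vehicle and close to each other. Gbp7 (chromosome 3, 142530342 to 142550149, plus strand), a guanylate-binding GTPase, had 8.98 and 6.52 CPM with vehicle and 10.7 and 11.1 CPM with PNPi+dG/rG (log2 fold change 0.51, SE 0.111, limma adjusted p = 0.0413), and its neighbor Gbp3, chosen after its values were seen, had 6.79 and 5.17 CPM with vehicle and 7.996 and 8.37 CPM with PNPi+dG/rG. In both Gbp genes vehicle replicate 1 stood above vehicle replicate 2. Without vehicle replicate 2, Gbp7 was at 0.28, Gbp3 at 0.27, Parp14 at 0.24, Ifi203 at 0.19, Irf1 at 0.41 and Slfn2 at 0.24, and none was called. Without PNPi+dG/rG replicate 2 none of the 6 was called either, with values from 0.21 to 0.48. The calls of Gbp7 (0.54), Gbp3 (0.50) and Ifi203 (0.31) also ended without PNPi+dG/rG replicate 1, and those of Irf1 (0.37) and Slfn2 (0.26) without vehicle replicate 1. Ifi203 (log2 fold change 0.26, limma adjusted p = 0.0401), of a family of DNA sensors, overlaps its relative Mndal on the same strand, so reads of the pair may be hard to assign.

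Other well-known IFN-stimulated genes were not called. Cxcl10, a chemokine for T cells, had 10.998 and 6.91 CPM with vehicle and 12.2 and 17.4 CPM with PNPi+dG/rG (log2 fold change 0.74, limma adjusted p = 0.443). Rsad2, which encodes the antiviral enzyme viperin, had 72.7 and 59.6 CPM with vehicle and 82.3 and 102 CPM with PNPi+dG/rG (log2 fold change 0.48, limma adjusted p = 0.353). Mx1, an antiviral GTPase, had 11.4 and 9.38 CPM with vehicle and 12.5 and 12.03 CPM with PNPi+dG/rG (log2 fold change 0.24, limma adjusted p = 0.446). In all 3 the lower vehicle library was replicate 2, and the gap between replicates was a large part of the difference between groups. By role, 11 of 15 sensors and signaling genes and 26 of 43 effectors had both treated libraries above both vehicle libraries, or 73.3% and 60.5%, against 24.6% of all genes tested.

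**Figure D2:**
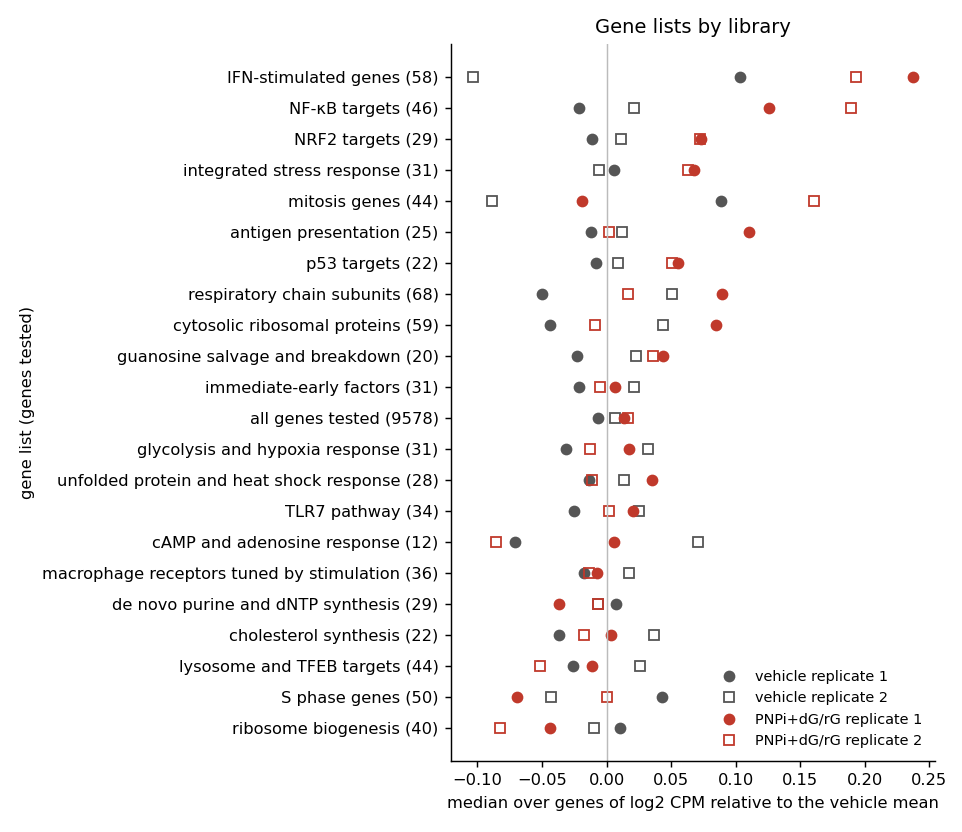
Median over the genes of each list of log2 CPM relative to the mean of the vehicle libraries, for each of the 4 libraries, with vehicle in gray, PNPi+dG/rG in red, replicate 1 filled and replicate 2 open. The number of genes tested is in parentheses. Of the lists shown, IFN-stimulated genes and NF-κB targets have both treated libraries furthest to the right, and in the IFN list the vehicle libraries lie at 0.10 and -0.10.

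Other stress and stimulus programs held from 0 to 3 called genes each. Of 31 immediate-early factors tested, Egr1 and Junb were called higher and none lower by limma, against 0.532% and 0.606% of all genes tested. At an unadjusted p under 0.05, 6 were higher and 4 lower, against 484 and 481 of the 9578 genes tested. Both treated libraries lay above both vehicle libraries in 10, or 32.3%, and below them in 11, or 35.5%. Among all genes tested these 2 shares were 24.6% and 19.2%. Junb (chromosome 8, 84974484 to 84978718, minus strand), a subunit of AP-1, had 175 and 194 CPM with vehicle and 219.8 and 239 CPM with PNPi+dG/rG (log2 fold change 0.31, SE 0.0519, limma adjusted p = 0.00616), and Prdx2 overlaps it on the other strand. Fos, chosen after its values were seen, had 193 and 192 CPM with vehicle and 205 and 218 CPM with PNPi+dG/rG and was not called, and the median of the list was 0.02 (-0.01 without PNPi+dG/rG replicate 1, 0.06 without vehicle replicate 2). Junb was not called without vehicle replicate 1 (0.24) or without PNPi+dG/rG replicate 2 (0.25).

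Among 29 targets of NRF2, the transcription factor of the response to oxidants, the genes Slc7a11, Srxn1 and Txnrd1 were called higher. Of all genes tested, 0.532% were called higher. At an unadjusted p under 0.05 there were 10 higher and 1 lower, against 484 and 481 of the 9578 genes tested. Both treated libraries exceeded both vehicle libraries in 16, or 55.2%, and lay below them in 3, or 10.3%. Among all genes tested these shares were 24.6% and 19.2%. Slc7a11, which imports cystine for glutathione, had 19.2 and 19.2 CPM with vehicle and 24.0 and 29.8 CPM with PNPi+dG/rG (log2 fold change 0.48, SE 0.0862, limma adjusted p = 0.0189). Srxn1, which encodes sulfiredoxin, had 224 and 234 CPM with vehicle and 272 and 284 CPM with PNPi+dG/rG (log2 fold change 0.28, SE 0.0428, limma adjusted p = 0.00377), and Txnrd1, a thioredoxin reductase, had 540.2 and 549 CPM with vehicle and 602 and 639.9 CPM with PNPi+dG/rG (log2 fold change 0.19, SE 0.0404, limma adjusted p = 0.0281). All 3 belong to the thiol redox machinery, and each separated by group. The classical target Hmox1, chosen after its values were seen, had 535 and 572 CPM with vehicle and 552 and 544 CPM with PNPi+dG/rG, with no separation. Without PNPi+dG/rG replicate 2 none of the 3 was called, at 0.32, 0.25 and 0.14. The number called was 1 without either vehicle library, which was Srxn1 at 0.25 without vehicle replicate 1 and 0.31 without vehicle replicate 2. There Slc7a11 was at 0.48 and 0.48, and Txnrd1 at 0.18 and 0.20.

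Of 31 genes of the integrated stress response, which lowers translation and induces genes of amino acid supply, Slc7a11 and Atf5 were called higher. For this list and the others of this paragraph, the share to compare with is the 0.532% of all genes called higher. Both treated libraries lay above both vehicle libraries in 20 of the 31, or 64.5%, and below them in 0, against 24.6% and 19.2% of all genes tested. The median was 0.06, or 0.03 with each library centered. Atf5 (chromosome 7, 44812256 to 44816658, minus strand), a transcription factor of this response, had 79.8 and 84.2 CPM with vehicle and 104 and 102 CPM with PNPi+dG/rG (log2 fold change 0.33, SE 0.0595, limma adjusted p = 0.0121). The count was 0 without vehicle replicate 1 and without PNPi+dG/rG replicate 2, where Atf5 was at 0.29 and 0.34, and 1 without either of the other libraries, since Atf5 was not called without PNPi+dG/rG replicate 1 (0.31) nor Slc7a11 without vehicle replicate 2 (0.48). Of 25 genes of antigen presentation Tap1, the peptide transporter of the MHC class I pathway, was called, with 87.2 and 88.9 CPM with vehicle and 106 and 106 CPM with PNPi+dG/rG (log2 fold change 0.27, SE 0.0507, limma adjusted p = 0.0148). Of 31 genes of glycolysis and the hypoxia response Pfkl, a phosphofructokinase, was called, with 67.5 and 71.5 CPM with vehicle and 82.1 and 79.4 CPM with PNPi+dG/rG (log2 fold change 0.22, SE 0.0509, limma adjusted p = 0.0482). The call of Tap1 and that of Pfkl ended whichever of the 4 libraries was left out, with Tap1 between 0.26 and 0.28 and Pfkl between 0.18 and 0.26.

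The large decreases were in genes of diverse function. Dio2 (chromosome 12, 90724552 to 90738438, minus strand), the deiodinase that activates thyroid hormone, had 51.2 and 46.0 CPM with vehicle and 28.3 and 29.1 CPM with PNPi+dG/rG (log2 fold change -0.76, SE 0.146, limma adjusted p = 0.0189). Nes (chromosome 3, 87971078 to 87980451, plus strand), which encodes the intermediate filament protein nestin, had 88.7 and 86.0 CPM with vehicle and 56.2 and 53.1 CPM with PNPi+dG/rG (log2 fold change -0.68, SE 0.12, limma adjusted p = 0.0124). Rasgrp3 (chromosome 17, 75435896 to 75529054, plus strand), an exchange factor for Ras and Rap, had 63.7 and 70.01 CPM with vehicle and 45.1 and 44.7 CPM with PNPi+dG/rG (log2 fold change -0.57, SE 0.115, limma adjusted p = 0.02). Replicates of each group lay close together in these genes. Rab3il1, an exchange factor for Rab GTPases, fell from 106 and 118 to 80.3 and 76.0 CPM (log2 fold change -0.52, SE 0.0748, limma adjusted p = 0.0032), and Cnn2, an actin-binding calponin, fell from 29.9 and 29.8 to 21.1 and 20.1 CPM (log2 fold change -0.53, SE 0.0771, limma adjusted p = 0.0032). The receptor gene Gprc5b and Stra6l, which encodes a receptor for retinol-binding protein, were also called lower, with log2 fold changes of -0.67 and -0.57. Olfr111, an olfactory receptor gene, fell from 10.4 and 9.55 to 5.31 and 6.10 CPM and Gm21887 from 6.397 and 7.81 to 4.12 and 2.65 CPM (log2 fold change -1.10, the largest decrease). Gm21887 lies at 170009659 to 170019281 near the end of chromosome X, where the assembly is uncertain. Each of these 9 calls ended without at least 1 library. Those of Dio2 (-0.68 to -0.84), Rasgrp3 (-0.50 to -0.64) and Olfr111 (-0.71 to -0.91) ended whichever of the 4 was left out. That of Nes ended without vehicle replicate 1 (-0.65), vehicle replicate 2 (-0.70) or PNPi+dG/rG replicate 2 (-0.64), that of Gprc5b without vehicle replicate 1 (-0.67), vehicle replicate 2 (-0.67) or PNPi+dG/rG replicate 2 (-0.58), and that of Stra6l without vehicle replicate 2 (-0.51), PNPi+dG/rG replicate 1 (-0.57) or PNPi+dG/rG replicate 2 (-0.56). Gm21887 was not called without vehicle replicate 2 (-0.95) or PNPi+dG/rG replicate 2 (-0.78), Rab3il1 not without PNPi+dG/rG replicate 2 (-0.48), and Cnn2 not without PNPi+dG/rG replicate 2 (-0.50).

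The transcript of the guanosine receptor itself was lower. Tlr7 (ENSMUSG00000044583, chromosome X, 167304929 to 167330558, minus strand) had 166 and 142 CPM with vehicle and 113 and 123 CPM with PNPi+dG/rG (log2 fold change -0.38, SE 0.069, limma adjusted p = 0.0166). Both treated libraries were below both vehicle libraries, which differed from each other. The call ended without vehicle replicate 1, at -0.27, and without PNPi+dG/rG replicate 1, at -0.32. Of the 34 genes of the TLR7 pathway tested, 1 was called higher and 1 lower, against 0.532% and 0.606% of all genes tested. Their median was 0.01 (-0.01 without vehicle replicate 1, 0.02 without vehicle replicate 2). At an unadjusted p under 0.05, 3 were higher and 3 lower, where 10.1% of all genes passed in either direction. Traf3 (chromosome 12, 111166370 to 111267153, plus strand), an adaptor that links TLRs to IRF activation and restrains alternative NF-κB signaling, was the higher gene, with 69.4 and 75.0 CPM with vehicle and 84.3 and 87.0 CPM with PNPi+dG/rG (log2 fold change 0.25, SE 0.0548, limma adjusted p = 0.0358). It was called without vehicle replicate 2 (0.30) but not without vehicle replicate 1 (0.19), PNPi+dG/rG replicate 1 (0.27) or PNPi+dG/rG replicate 2 (0.23). The chaperone of endosomal TLRs, Unc93b1, had 564 and 588 CPM with vehicle and 595 and 566 CPM with PNPi+dG/rG, a log2 fold change of 0.01. Slc29a3, a lysosomal nucleoside transporter, had 86.1 and 85.6 CPM with vehicle and 77.7 and 77.6 CPM with PNPi+dG/rG (log2 fold change -0.14, limma adjusted p = 0.434), with both treated libraries lower.

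Genes that handle guanosine were not called. Of 25 listed genes of guanosine salvage and breakdown, 20 passed the filter, and limma called 0, against 1.14% of all genes tested. At an unadjusted p under 0.05, 1 was higher and 1 lower, where 10.1% of all genes passed in either direction. Such counts do not set a list of this size apart. The log2 fold changes of the 20 genes ran from -0.16 for Xdh, which makes uric acid, to 0.26 for the nucleotidase gene Nt5c. Their median was 0.04 (0.02 without vehicle replicate 1, 0.04 without PNPi+dG/rG replicate 2). Pnp (chromosome 14, 50931082 to 50965237, plus strand), the target of the inhibitor, had 46.3 and 47.8 CPM with vehicle and 47.8 and 42.2 CPM with PNPi+dG/rG, a log2 fold change of -0.07 (SE 0.0644, limma adjusted p = 0.816). Its level was thus within the spread of the libraries, and its close copy Pnp2, which overlaps it on the same strand, was under the filter. Hprt, which salvages guanine, had 132 and 131 CPM with vehicle and 129 and 136 CPM with PNPi+dG/rG. Gda, which deaminates guanine, had 46.9 and 40.2 CPM with vehicle and 44.5 and 42.3 CPM with PNPi+dG/rG. Dck, which phosphorylates deoxynucleosides, had 113 and 99.6 CPM with vehicle and 112 and 119 CPM with PNPi+dG/rG. Samhd1, which degrades dNTPs and is activated by GTP, had 271 and 271 CPM with vehicle and 269.6 and 257 CPM with PNPi+dG/rG. The groups overlapped in Hprt, Gda and Dck, while in Samhd1 both treated libraries were slightly below vehicle. The log2 fold changes of Hprt, Gda, Dck and Samhd1 were 0.01, -0.00, 0.12 and -0.04. Of 29 genes of de novo purine and dNTP synthesis, 0 were called by limma and 1 was higher at an unadjusted p under 0.05. These counts, too, do not set the list apart from all genes tested. The median of the list was -0.02 (-0.04 without PNPi+dG/rG replicate 2, -0.00 without vehicle replicate 1). Xdh and Nt5c were chosen as the ends of a range after their values were seen.

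Several programs had no called gene in limma. Limma called 1.14% of all genes tested, and 10.1% had an unadjusted p under 0.05, so 0 calls does not set lists of these sizes apart. The median of the 50 S phase genes was -0.03 (-0.07 without PNPi+dG/rG replicate 2, 0.01 without vehicle replicate 1), with 1 lower at an unadjusted p under 0.05. That of the 44 mitosis genes was 0.06 (-0.04 without vehicle replicate 2, 0.16 without PNPi+dG/rG replicate 1), with 1 higher, and the replicates of each group differed in these genes. For 22 p53 targets the median was 0.06 (0.05 without vehicle replicate 1, 0.07 without vehicle replicate 2) with 1 higher at an unadjusted p under 0.05. For 12 genes of the response to cAMP and adenosine it was -0.00 (-0.09 without PNPi+dG/rG replicate 1, 0.05 without vehicle replicate 2) with 1 higher and 2 lower. Rgs2, a regulator of G protein signaling that cAMP induces, had 252 and 261 CPM with vehicle and 241 and 225 CPM with PNPi+dG/rG (log2 fold change -0.14). For 22 genes of cholesterol synthesis the median was -0.02 (-0.03 without vehicle replicate 1, 0.00 without PNPi+dG/rG replicate 2) with 1 lower, and for 28 genes of the unfolded protein and heat shock responses it was 0.01 (-0.01 without PNPi+dG/rG replicate 1, 0.04 without PNPi+dG/rG replicate 2) with 2 higher and 1 lower. Cytosolic ribosomal proteins, 59 genes, had a median of 0.05 (-0.01 without PNPi+dG/rG replicate 1, 0.09 without vehicle replicate 2), and respiratory chain subunits, 68 genes, a median of 0.05 (0.01 without vehicle replicate 1, 0.09 without PNPi+dG/rG replicate 2), each with 2 genes higher at an unadjusted p under 0.05.

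Among the lists of programs, the 2 with the largest shares of genes below vehicle in both treated libraries held 0 genes called by limma. Limma called 1.14% of all genes tested, and 10.1% had an unadjusted p under 0.05. Among all genes tested 19.2% lay below and 24.6% above, but these shares depended on abundance, at 32.9% and 14.1% in the quintile with the highest mean CPM, and the lists were not matched for it. Of 40 genes of ribosome biogenesis, 17 lay below, or 42.5%, and 2 above, or 5.00%. The median was -0.06 (-0.09 without vehicle replicate 2, -0.04 without vehicle replicate 1), and 1 gene was lower at an unadjusted p under 0.05. Of 44 lysosomal genes and targets of TFEB, the transcription factor of lysosome genes, 17 lay below, or 38.6%, and 3 above, or 6.82%. The median was -0.03 (-0.06 without vehicle replicate 1, -0.01 without vehicle replicate 2), and 4 were lower and 2 higher at an unadjusted p under 0.05. These 2 lists were chosen after the shares of all lists were seen. Genes of a list are not independent of each other, and no test of a list as a whole was run.

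Some of the lower genes encode proteins of the cytoskeleton and of cell shape. Besides Nes and Cnn2, these were Lcp1, which bundles actin, Wdr1, which helps to disassemble it, Zyx of focal adhesions, Nav1 and Nav2, which bind microtubules, and Plxna1 and Plxna2, which are semaphorin receptors. Lcp1 had 2467 and 2449 CPM with vehicle and 2233 and 2186 CPM with PNPi+dG/rG (log2 fold change -0.15, SE 0.0335, limma adjusted p = 0.0317). Zyx had 126 and 141 CPM with vehicle and 112 and 103 CPM with PNPi+dG/rG (log2 fold change -0.31, SE 0.0626, limma adjusted p = 0.0204), and Plxna1 had 999 and 1025 CPM with vehicle and 858 and 896 CPM with PNPi+dG/rG (log2 fold change -0.21, SE 0.0425, limma adjusted p = 0.0217). Both treated libraries were lower in each. In the other direction, Marcks, which also binds actin, was called higher, with 109.6 and 96.6 CPM with vehicle and 117 and 129.6 CPM with PNPi+dG/rG (log2 fold change 0.26), though not without vehicle replicate 2 (0.17) or PNPi+dG/rG replicate 2 (0.18). Lipid genes were also present. Pparg, a nuclear receptor of lipid metabolism, had 56.0 and 55.4 CPM with vehicle and 42.5 and 41.2 CPM with PNPi+dG/rG (log2 fold change -0.41, SE 0.0721, limma adjusted p = 0.00934), and Plin2, which coats lipid droplets, had 1068 and 1142 CPM with vehicle and 958 and 918 CPM with PNPi+dG/rG (log2 fold change -0.24, SE 0.0465, limma adjusted p = 0.0183). Polr2a, the largest subunit of RNA polymerase II, had 505 and 479 CPM with vehicle and 412 and 416 CPM with PNPi+dG/rG (log2 fold change -0.25, SE 0.0432, limma adjusted p = 0.00826). Genes other than Nes and Cnn2 were chosen here after their values were seen, and no list of cytoskeletal or lipid genes was tested. The calls of Lcp1 (-0.14 to -0.17), Wdr1 (-0.15 to -0.18), Nav1 (-0.20 to -0.27), Nav2 (-0.24 to -0.31), Plxna1 (-0.18 to -0.24), Plxna2 (-0.30 to -0.36) and Pparg (-0.39 to -0.43) ended whichever of the 4 libraries was left out. Zyx was not called without vehicle replicate 2 (-0.23) or PNPi+dG/rG replicate 2 (-0.25), Plin2 not without vehicle replicate 2 (-0.19) or PNPi+dG/rG replicate 2 (-0.20), and Polr2a not without vehicle replicate 1 (-0.21), PNPi+dG/rG replicate 1 (-0.24) or PNPi+dG/rG replicate 2 (-0.26).

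Nptx1, a secreted pentraxin, had 149 and 147 CPM with vehicle and 112 and 117 CPM with PNPi+dG/rG (log2 fold change -0.37, SE 0.0689, limma adjusted p = 0.0143). It was lower in both treated libraries, and the call ended whichever of the 4 libraries was left out, with values between -0.33 and -0.40.

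A few histone transcripts were called higher. Of 71 histone genes in the table, 5 passed the filter, and the sum of all 71 was 147 and 146 CPM with vehicle and 189 and 189 CPM with PNPi+dG/rG. The genes called higher were Hist1h1c, Hist1h2bc and H1f0, a linker histone whose expression is not tied to replication. Of all genes tested, 0.532% were called higher. Hist1h1c had 37.9 and 41.2 CPM with vehicle and 54.4 and 54.7 CPM with PNPi+dG/rG (log2 fold change 0.46, SE 0.0982, limma adjusted p = 0.0278), Hist1h2bc had 13.3 and 13.03 CPM with vehicle and 17.0 and 18.8 CPM with PNPi+dG/rG (log2 fold change 0.44, SE 0.0989, limma adjusted p = 0.0384), and H1f0 had 66.4 and 68.2 CPM with vehicle and 84.7 and 82.5 CPM with PNPi+dG/rG (log2 fold change 0.31, SE 0.0638, limma adjusted p = 0.0204). The other tested genes, Hist2h2be and Hist3h2a, had log2 fold changes of 0.25 and 0.60, did not pass the test, and were chosen after their values were seen. In all 5 tested genes both treated libraries lay above both vehicle libraries, against 24.6% of all genes tested. Each of the 3 calls ended whichever of the 4 libraries was left out, with log2 fold changes between 0.41 and 0.52 for Hist1h1c, between 0.37 and 0.52 for Hist1h2bc, and between 0.29 and 0.33 for H1f0. Histone mRNAs mostly lack poly(A) tails, so their level in libraries made from poly(A) RNA depends on library preparation, whose part was not tested.

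Nuclear and noncoding RNAs differed between libraries. Gm42418, which overlaps ribosomal RNA repeats, was the most abundant gene of the treated libraries, with 13526 and 8686 CPM with vehicle and 18790.2 and 20786 CPM with PNPi+dG/rG, and Fth1, the ferritin heavy chain, was the most abundant with vehicle. The log2 fold change of Gm42418 was 0.87 and was not called. Lars2, a mitochondrial tRNA synthetase gene that carries a similar repeat, had 414 and 288 CPM with vehicle and 589 and 587 CPM with PNPi+dG/rG. In both genes vehicle replicate 1 lay above vehicle replicate 2. Neat1, the scaffold RNA of paraspeckles, fell from 663 and 698 to 594 and 509 CPM (log2 fold change -0.31, SE 0.0602, limma adjusted p = 0.0218), and it was not called without vehicle replicate 1 (-0.34), vehicle replicate 2 (-0.27) or PNPi+dG/rG replicate 2 (-0.20). Malat1, another nuclear RNA, had 1426 and 1481 CPM with vehicle and 1368 and 1246 CPM with PNPi+dG/rG. The 13 mitochondrial mRNAs, of which 6 had no read, summed to 15716 and 12570.2 CPM with vehicle and 14047 and 14911 CPM with PNPi+dG/rG. Kit, Lars2, Malat1, Vwf and Gm42418 were chosen after their values were seen.

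The effect of PNPi+dG/rG was measured a second time in cells that also received polyU, with libraries that share none with the comparison to vehicle. There, 1551 genes (16.2%) were called higher and 5180 (54.1%) lower than with polyU alone. The median of all genes tested was -0.23 on the log2 scale. With each library centered on its median, 2772 genes (28.9%) were higher and 3098 (32.3%) lower, so the balance of directions depends on scaling. Of the 51 genes higher with PNPi+dG/rG alone, 44 were also called higher when it was added to polyU, 2 were called lower and 5 were not called. With centered libraries 47 were called higher and 1 lower. Their median log2 fold change was 1.33 with polyU and 0.35 without. Of the 58 lower genes, 46 were also called lower with polyU, 5 were called higher and 7 were not called, and with centered libraries 39 were lower and 9 higher. Their median was -0.76 with polyU, -0.56 after centering, and -0.30 without polyU. In both directions, before and after centering, the share called the same way was above that of all genes tested. Both effects take the spread of a gene from the same fit, so genes of small spread are called more readily in both. This tilts the comparison with all genes tested, by an amount that was not tested.

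Among the genes called alone, Slc7a11 and 4 inflammatory genes had the largest increases with polyU. Added to polyU, PNPi+dG/rG raised Slc7a11 by 4.41, Nfkbiz by 4.39, Ccl3 by 4.12, Ccl4 by 4.02 and Tnf by 3.70 on the log2 scale, against values from 0.35 to 0.59 without polyU. Mgea5 was raised less, by 0.76 with polyU and 0.51 without, or by 0.97 and 0.48 with centered libraries. The difference between its effects with and without polyU was called under both scalings. Of the lower genes, Rasgrp3, Rab3il1 and Dio2 had the largest decreases with polyU, with log2 fold changes of -3.06, -2.72 and -2.37. The 5 genes raised alone but not called with polyU were H1f0, Hist1h1c, Hist1h2bc, the lysosomal enzyme gene Hgsnat and the autophagy gene Atg12, with values from -0.10 to 0.20. Tlr7 was among the lower genes that were not called with polyU, at 0.14, as were Cnn2 at -0.04 and Olfr111 at -0.03. By list, 43 of 46 NF-κB targets and 52 of 58 IFN-stimulated genes were called higher with polyU, against 16.2% of all genes tested. Called lower were 2 and 0, against 54.1%, and the medians were 2.09 and 0.87. With centered libraries 43 and 56 were higher and 1 and 0 lower, against 28.9% and 32.3% of all genes tested. The centered medians were 2.29 and 1.08. The difference between the effects with and without polyU was called for Tlr7 (0.52, limma adjusted p = 0.000413), Cnn2 (0.50, limma adjusted p = 0.000971) and Olfr111 (0.78, limma adjusted p = 0.016), before and after centering. Of the 5 raised genes it was called for H1f0, Hist1h1c, Hgsnat and Atg12 before centering and for none after, by limma. Among all genes tested, this difference was called for 5624, or 58.7%, before centering and for 4485 after. It contains the effect without polyU by which the named genes were picked, so its calls are not independent of that choice. With centered libraries Tlr7 (0.34), Hist1h2bc (0.41), Hgsnat (0.19) and Atg12 (0.25) were called higher with polyU. Hgsnat and Atg12 were chosen after their values were seen.

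**Figure D3:**
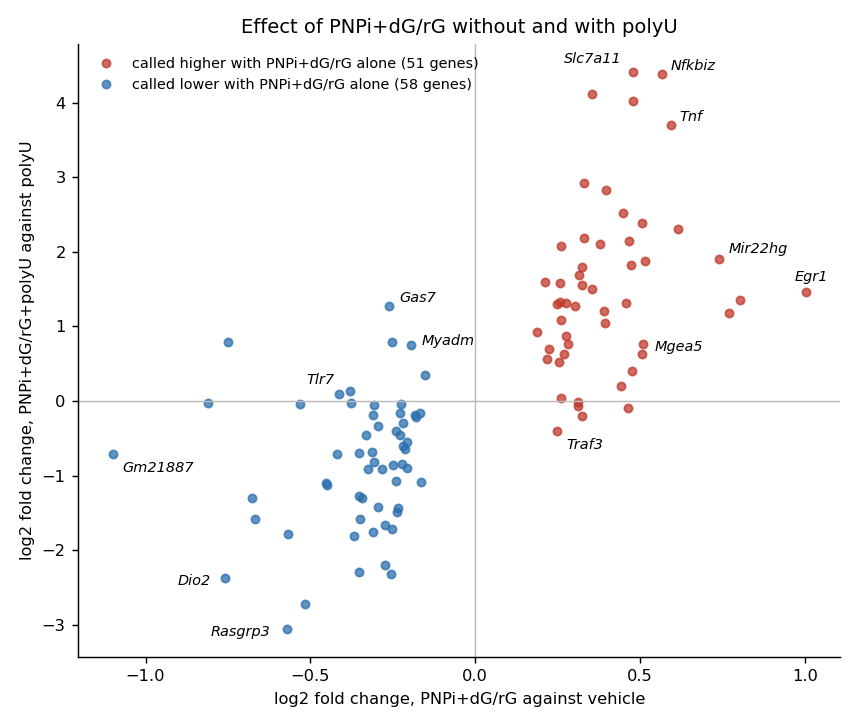
Log2 fold changes of the 109 called genes. The horizontal axis shows PNPi+dG/rG against vehicle and the vertical axis PNPi+dG/rG+polyU against polyU, from separate libraries, with genes called higher alone in red and genes called lower alone in blue. Of the 51 red genes 46 lie above 0 on the vertical axis, and of the 58 blue genes 51 lie below 0, where centering the libraries would raise all points by about the same amount and leave 50 and 42.

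Since several NF-κB targets rose, promoters were searched for the κB consensus by its standard letters on both strands, in the 250 bases before each RefSeq start on GRCm38.p6. Of the 9578 genes tested, 7699 had such a sequence, and 803 of these, or 10.4%, held a match, as did 2225 of all 27025 genes with a promoter sequence, or 8.23%. The share was 11 of 36, or 30.6%, among the genes called higher and 8 of 47, or 17.0%, among those called lower. Among the NF-κB targets called higher, 5 of 11 held a match, which were Nfkb2, Nfkbia, Nfkbie, Tlr2 and Tnip3, and among all targets tested 15 of 32. The promoter of Tnf held none in this window. A match is a description and not a site of binding. The matches, in capitals, began 29 bases before the start in Nfkbia (chr12:55492648-55492897, minus strand), 106 in Nfkbie (chr17:45555450-45555699, plus strand) and 54 in Tnip3 (chr6:65590148-65590397, plus strand). In the first of 3 windows of Nfkb2 (chr19:46304487-46304736, plus strand) there were 3 matches, and in Tlr2 (chr3:83841609-83841858, minus strand) there were 2 that overlap. The 5 promoters are shown because these genes are the called targets that carry the motif.
Nfkbia: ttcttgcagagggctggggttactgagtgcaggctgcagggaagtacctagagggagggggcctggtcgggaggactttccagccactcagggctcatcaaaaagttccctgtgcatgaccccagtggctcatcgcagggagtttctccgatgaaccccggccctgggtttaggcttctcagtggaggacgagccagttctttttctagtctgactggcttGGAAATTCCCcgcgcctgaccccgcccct
Nfkbie: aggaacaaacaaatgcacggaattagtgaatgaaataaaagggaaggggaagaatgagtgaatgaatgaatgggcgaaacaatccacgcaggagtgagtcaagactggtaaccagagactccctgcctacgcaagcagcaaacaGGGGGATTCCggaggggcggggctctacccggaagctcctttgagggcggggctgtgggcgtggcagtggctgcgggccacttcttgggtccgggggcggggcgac
Tnip3: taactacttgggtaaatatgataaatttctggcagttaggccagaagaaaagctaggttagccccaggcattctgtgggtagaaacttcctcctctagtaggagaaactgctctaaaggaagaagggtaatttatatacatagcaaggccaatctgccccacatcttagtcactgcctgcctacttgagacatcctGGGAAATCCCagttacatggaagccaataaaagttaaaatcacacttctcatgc
Nfkb2: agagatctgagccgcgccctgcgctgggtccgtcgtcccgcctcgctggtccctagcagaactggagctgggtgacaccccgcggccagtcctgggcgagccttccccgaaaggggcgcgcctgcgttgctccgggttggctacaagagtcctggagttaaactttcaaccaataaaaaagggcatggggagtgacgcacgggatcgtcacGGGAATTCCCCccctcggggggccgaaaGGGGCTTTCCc
Tlr2: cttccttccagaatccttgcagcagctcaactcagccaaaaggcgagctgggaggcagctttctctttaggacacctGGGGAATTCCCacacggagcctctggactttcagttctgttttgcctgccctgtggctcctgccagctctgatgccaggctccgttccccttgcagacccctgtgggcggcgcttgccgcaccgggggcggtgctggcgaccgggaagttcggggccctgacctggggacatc

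IFN-stimulated genes often carry the core of the IFN-stimulated response element, which was searched as GAAANNGAAA on both strands in the same windows. It was present in 257 of 7699 genes tested, or 3.34%, in 5 of 36 genes called higher, or 13.9%, and in 1 of 47 called lower, or 2.13%. Of the listed IFN-stimulated genes tested, 23 of 47 held it, and of those called higher 3 of 5, which were Gbp3, Gbp7 and Ifi203. The promoters of the neighboring genes Gbp7 (chr3:142530086-142530335, plus strand) and Gbp3 (first of 2 windows, chr3:142559794-142560043, plus strand) are shown because these had the largest increases of the list among called genes. The match began 53 bases before the start in Gbp7, and there were 2 matches in Gbp3, at 45 and 39 bases. The AP-1 motif TGANTCA, searched in the same way, was in 4 of 36 genes called higher, or 11.1%, in 3 of 47 called lower, or 6.38%, and in 396 of 7699 tested, or 5.14%.
Gbp7: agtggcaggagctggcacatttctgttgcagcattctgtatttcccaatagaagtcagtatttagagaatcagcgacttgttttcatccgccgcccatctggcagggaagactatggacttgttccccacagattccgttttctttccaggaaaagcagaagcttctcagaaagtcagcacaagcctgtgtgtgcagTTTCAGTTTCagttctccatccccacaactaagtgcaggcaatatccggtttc
Gbp3: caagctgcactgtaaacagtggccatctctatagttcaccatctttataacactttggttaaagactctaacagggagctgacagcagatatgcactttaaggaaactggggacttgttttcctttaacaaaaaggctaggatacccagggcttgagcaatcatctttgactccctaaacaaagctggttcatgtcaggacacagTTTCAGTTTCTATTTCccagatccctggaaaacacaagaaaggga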

How the data were processed

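RNA of BMDMs was sequenced by the authors as stranded mRNA libraries in reads of 50 bp. According to the study's methods, the authors mapped reads with STAR 2.27a, used the gene models of Ensembl release 97, and deposited CPM made in Partek Flow with an offset of 0.0001. The table holds 10 libraries with 1 value per gene and library, so the counting of reads in overlapping genes cannot be checked. Depth was derived from the spacing of the low values, of which 100% were whole to within 0.1 read. Of the identifiers, 55480 have a symbol in the GENCODE annotation of Ensembl release 96 on GRCm38, from which positions were taken.

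Differences were tested on log2 of the deposited CPM with limma 3.58.1 in R 4.3.3. All 10 libraries were in 1 fit by group, with eBayes using a trend and robust estimates (statmod 1.5.0), and p-values were corrected after Benjamini and Hochberg for the 9578 genes reaching a mean of 5 CPM. Genes were called at an adjusted p-value under 0.05. A fold change is the mean log2 value of the treated group minus that of vehicle. The fit was tested on simulated data. Alternatives changed the pseudocount, the filter, the scaling, the length and GC trend, eBayes, the libraries fitted, the weights and the pairing of replicates, and left out each library in turn. Tables and figures were made with Python 3.11.15, numpy 2.4.6, pandas 2.3.3, scipy 1.17.1 and matplotlib 3.10.9.

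The libraries compared and the gene lists were chosen with earlier results of these data known, so lists are described by counts and medians. Named genes are the 10 largest called changes in each direction, up to 4 called members per list with the smallest p, 24 fixed genes, members of counts of 5 or fewer, and the genes at the edge of the filter. Others are marked in the text as chosen after their values were seen. A gene among the 10 largest decreases is not reported here.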

Additional observations from a re-analysis of the deposited data

Results flagged for a closer look

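In 7 genes the effect of PNPi+dG/rG was called in opposite directions without and with polyU. In these genes limma also called the difference between the 2 effects (the interaction, on log2 CPM). The interaction subtracts the effects by which the genes were picked, in the same fit. Its call thus follows from the choice and is not further support. Such an interaction was called for 5624 of the genes tested (58.7%). Of the 7 genes, 6 are described.

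Of the genes lower alone and higher with polyU, Gas7, an actin-associated gene, had 218 and 211 CPM with vehicle, 178 and 179 with PNPi+dG/rG, 257 and 253 with polyU, and after both 593 and 646, with log2 fold changes of -0.26 alone and 1.28 with polyU and an interaction of 1.54 (SE 0.0638, limma adjusted p = 2.38e-12). Myadm, a membrane protein gene of cell spreading, had 388 and 374 CPM with vehicle, 334 and 331 with PNPi+dG/rG, 325 and 299 with polyU, and after both 511 and 534, with log2 fold changes of -0.20 alone and 0.75 with polyU and an interaction of 0.94 (SE 0.0651, limma adjusted p = 1.89e-09). Sh3bp5, a gene for an exchange factor of Rab GTPases, had 81.3 and 80.4 CPM with vehicle, 67.5 and 68.2 with PNPi+dG/rG, 94.0 and 100.1 with polyU, and after both 164 and 170.0, with log2 fold changes of -0.25 alone and 0.79 with polyU and an interaction of 1.04 (SE 0.0743, limma adjusted p = 3e-09). Lcp1, the actin bundler, had 2467 and 2449 CPM with vehicle, 2233 and 2186 with PNPi+dG/rG, 2278 and 2216 with polyU, and after both 2862 and 2863, with log2 fold changes of -0.15 alone and 0.35 with polyU and an interaction of 0.50 (SE 0.0473, limma adjusted p = 1.09e-07). In each of these 4 genes PNPi+dG/rG was below vehicle and PNPi+dG/rG+polyU was above polyU in every library. Centering the libraries raised the 4 interactions of Gas7, Myadm, Sh3bp5 and Lcp1 and kept their direction. The calls without polyU ended whichever library was left out for Myadm (-0.17 to -0.22), Sh3bp5 (-0.24 to -0.26) and Lcp1 (-0.14 to -0.17), and without vehicle replicate 1 (-0.24), PNPi+dG/rG replicate 1 (-0.26) or PNPi+dG/rG replicate 2 (-0.27) for Gas7.

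Traf3 and Atf5 went the other way. Traf3 had 69.4 and 75.0 CPM with vehicle, 84.3 and 87.0 with PNPi+dG/rG, 95.1 and 92.6 with polyU, and after both 70.8 and 71.5, with log2 fold changes of 0.25 alone and -0.40 with polyU and an interaction of -0.65 (SE 0.0775, limma adjusted p = 2.11e-06). With centered libraries its change with polyU was -0.20 and its interaction -0.41, while its change alone was 0.22 and no longer called, so under that scaling it was not called in opposite directions. Atf5 had 79.8 and 84.2 CPM with vehicle, 104 and 102 with PNPi+dG/rG, 73.5 and 80.2 with polyU, and after both 65.8 and 68.3, with log2 fold changes of 0.33 alone and -0.20 with polyU and an interaction of -0.52 (SE 0.0841, limma adjusted p = 5.76e-05). With centered libraries its change with polyU was 0.01 and no longer called, and its interaction was -0.29 (limma adjusted p = 0.0108). The calls without polyU ended without vehicle replicate 1 (0.19), PNPi+dG/rG replicate 1 (0.27) or PNPi+dG/rG replicate 2 (0.23) for Traf3 and without vehicle replicate 1 (0.29), PNPi+dG/rG replicate 1 (0.31) or PNPi+dG/rG replicate 2 (0.34) for Atf5.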

How the results depend on the processing

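The counts with PNPi+dG/rG alone were 51 higher, 58 lower and 12 at least 1.5-fold, and they moved with several settings, for which the cause was not tested unless named. Removal of the trend with gene length and GC gave 77 higher and 91 lower, and 80 and 91 with a replicate block as well. Plain eBayes, which learns no trend or robust spread, gave 5, 1 and 4. Fitting only the 4 libraries gave 100 lower, voom weights 160 lower and centered libraries 106 lower. A mean of at least 10 CPM, which tests fewer genes, gave 6 at least 1.5-fold, at least 1 CPM in 2 libraries gave 21, and no filter gave 24 with 27 lower. With 1 library left out, where a lone library is assumed to vary like the other groups, the ranges were 7 to 37 higher, 5 to 21 lower and 4 to 16 at least 1.5-fold. Deviations of libraries with the same replicate number correlated at -0.28 across genes between vehicle and PNPi+dG/rG. A block with the PNPi+dG/rG numbers crossed, chosen after seeing the data, gave 70 higher and 102 lower, against 57 and 68 with the numbers as labeled. No called gene had the opposite sign under any of the 18 alternatives. The count with PNPi+dG/rG added to polyU was 6731 genes and lay between 5870 and 6977, and that of the interaction, 5624, between 4485 and 5957.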

Other observations

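The called genes differed in abundance and length between directions. Of the 58 lower genes, 38 were in the quintile of genes with the highest mean CPM, against 10 of the 51 higher genes, and 3 were in the lowest quintile, against 10. In the highest quintile, both treated libraries lay below both vehicle libraries in 32.9% of genes and above them in 14.1%. In the lowest quintile these shares were 15.7% and 26.1%. By length, 26 lower and 9 higher genes were in the quintile with the longest transcripts, and 6 lower and 17 higher genes in the quintile with the shortest. The median log2 fold change was 0.03 in the shortest quintile and -0.00 in the longest. With the trend with gene length and GC removed, 46 of the 51 higher and 57 of the 58 lower genes were still called. The part of library depth in these splits was not tested.

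The vehicle libraries also served as the control of polyU and R848, so the following values share them and are given side by side only. Dio2 had 36.9 and 46.3 CPM with polyU and 1.59 and 1.13 CPM with R848, and Nes had 22.8 and 17.9 CPM with polyU and 7.49 and 8.85 CPM with R848, beside vehicle levels of 51.2 and 46.0 CPM for Dio2 and 88.7 and 86.0 CPM for Nes. Rasgrp3 had 30.7 and 28.0 CPM with polyU and 0.584 and 0.582 CPM with R848, beside 63.7 and 70.01 CPM with vehicle. Egr1 had 3.64 and 3.14 CPM with polyU and 13.01 and 14.8 CPM with R848, so polyU alone left it below the level of vehicle, while PNPi+dG/rG had it at 9.79 and 8.48 CPM. Tlr7 had 148 and 142 CPM with polyU and 205 and 214 CPM with R848, and Pnp had 79.5 and 82.6 CPM with polyU and 124 and 136 CPM with R848, beside 46.3 and 47.8 CPM with vehicle. Kdr had 142 and 155 CPM with polyU and 18.5 and 21.1 CPM with R848, and Hist1h1c had 35.1 and 29.1 CPM with polyU and 18.0 and 15.003 CPM with R848.

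With a wider filter of at least 1 CPM in 2 libraries, 11978 genes were tested and 96 called, of which 49 were higher and 47 lower. Of the 96, 87 were also called under the filter at a mean of 5 CPM. The other 9 had a lower mean, and 6 of these had 0 reads in both vehicle libraries. The mitosis genes differed between replicates of each group. Their median, relative to the vehicle mean, was 0.09 in vehicle replicate 1, -0.09 in vehicle replicate 2, -0.02 in PNPi+dG/rG replicate 1 and 0.16 in PNPi+dG/rG replicate 2.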
